A study of Homo sapiens with 8 samples.

Results

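The liver X receptors (LXRs), their retinoid X receptor (RXR) partners and 4 of their target genes were examined in mRNA libraries of N/TERT cells. These 8 genes, NR1H2, NR1H3, RXRA, RXRB, ABCA1, ABCG1, LPCAT3 and SMPDL3A, were picked by symbol from the 61806 genes of the count table, and all 8 were expressed highly enough to be tested. N/TERT-1 is an immortalized line of human epidermal keratinocytes, wild-type in genotype and grown in serum-free medium. Cells were treated with ethanol, the solvent, in 4 libraries, and with oligomycin and antimycin A (O/A) in the other 4, for 4 hours. Oligomycin blocks the mitochondrial ATP synthase and antimycin A blocks complex III of the respiratory chain, and together they depolarize mitochondria. The 4 libraries of each condition were labelled as biological replicates of this single cell line. The question put to these genes was whether the mRNAs of the sterol efflux pathway changed when mitochondria were damaged.

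LXRs are nuclear receptors that bind oxysterols, which are oxidized forms of cholesterol. An LXR pairs with an RXR on DNA, at a direct repeat of a short hexamer spaced by a few bases (a DR4 element), and recruits coactivators when its ligand is bound. Its target genes move cholesterol out of the cell and remodel membrane phospholipids, so LXRs act when sterols are plentiful, whereas SREBP-2 acts when they are scarce. In the epidermis LXRs are known for roles in keratinocyte differentiation and in the lipids of the skin barrier.

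Between 17210404 and 20999927 reads per library were counted on genes. Within a condition, any pair of libraries differed beyond sampling noise (chi-square per degree of freedom 1.76 to 5.74, and 52.9 to 64.0 between conditions), so none was a copy of another. All 10 keratinocyte markers were expressed, with a summed level of 4135 to 4407 FPKM (counted fragments scaled by exon length and by the library total) in ethanol and 3717 to 3892 in O/A. They did not move together. Mean FPKM was lower in O/A for KRT5, KRT14, KRT15, TP63, COL17A1 and SFN. It was higher for ITGB4, ITGA6, LAMB3 and DSG3, the last at 52.8 in ethanol and 101.85 in O/A. The 7 markers of macrophages and leukocytes, cells in which LXR targets are also active, summed to 0.77 to 1.32 FPKM in ethanol and 1.25 to 1.51 in O/A. Of these, PTPRC, CD163 and MARCO were at 0 or 1 count in each library. CD68 had 15 to 33 counts, CSF1R 8 to 21, ITGAM 5 to 26 and CD14 4 to 12. The 7 fibroblast markers summed to 2.42 to 2.95 and 2.46 to 2.70 FPKM, the 6 melanocyte markers to 1.37 to 1.81 and 1.26 to 1.71, and the 5 endothelial markers to 0.05 to 0.07 and 0.04 to 0.11. Of the melanocyte markers, MLANA and TYR were at 0 in every library, and DCT and SOX10 had at most 4 counts. MITF had 128 to 168 counts and PMEL 17 to 45. The part of these markers in the results was not tested.

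O/A changed the pathway unevenly. ABCA1, the exporter that loads cholesterol onto apolipoprotein A-I, fell by 50.8%, and RXRA fell by 25.3%. NR1H2, ABCG1 and SMPDL3A rose by 26.7%, 27.96% and 32.3%, respectively, whereas NR1H3, RXRB and LPCAT3 did not pass the test. A call required an adjusted p no higher than 0.05 from the quasi-likelihood test of edgeR, together with an absolute log2(FC), the log2 ratio of O/A over ethanol on TMM-scaled counts, above 0.25. By this rule 5 of the 8 genes were called, beside 34.7% of all 14893 genes tested. Of the 8, 3 were upregulated, beside 15.8% of all genes, and 2 were downregulated, beside 18.9%. The O/A and ethanol libraries did not overlap in scaled counts for the same 5 of 8 genes, beside 47.6% of all genes. At an absolute log2(FC) above 1, ABCA1 alone of the 8 was called, beside 5.35% of all genes. The median log2(FC) of the 8 genes was -0.03 and that of all genes tested was -0.00040. In bulk libraries, fewer cells of a type and less RNA per cell cannot be told apart.

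**Figure D1:**
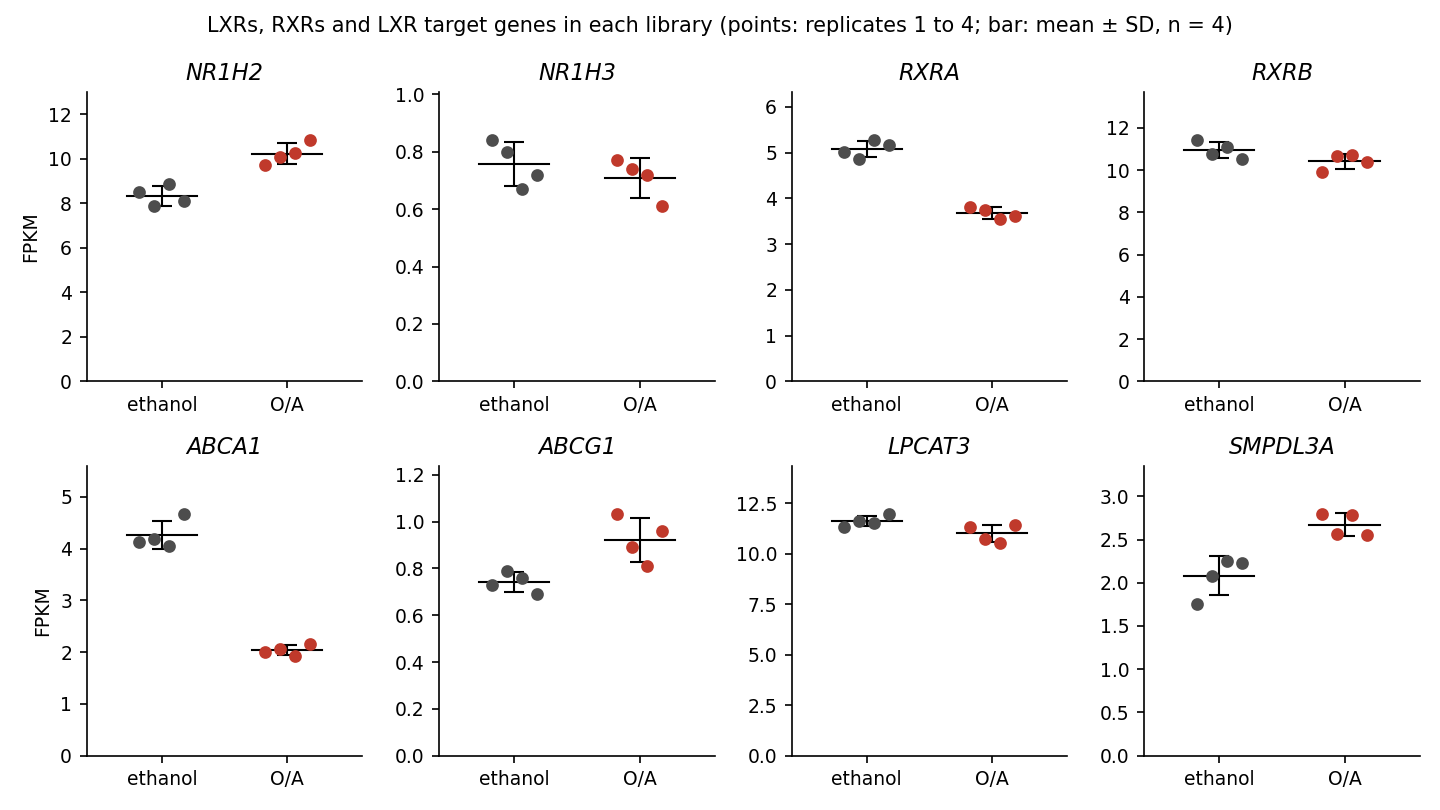
FPKM (y axis, from 0) of each of the 8 genes in the 4 ethanol and 4 O/A libraries. Points are libraries and bars are mean ± SD. ABCA1 lies between 4.05 and 4.66 FPKM in ethanol and between 1.93 and 2.16 in O/A, and NR1H3 overlaps between conditions.

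NR1H2 and NR1H3 encode the 2 LXRs, LXRβ and LXRα. NR1H2 is the form found in most tissues, and NR1H3 is most abundant in liver, fat, intestine and macrophages. NR1H2 (chr19:50329653-50383388, plus strand, GRCh38) had 835, 739, 815 and 907 counts in ethanol replicates 1 to 4 and 918, 1013, 1056 and 1026 counts in O/A replicates 1 to 4. Every O/A library was above every ethanol library. Its level was 8.34 ± 0.445 FPKM in ethanol and 10.2 ± 0.467 in O/A (mean ± SD, n = 4 each), a log2(FC) of 0.34 (standard error 0.045, edgeR adjusted p = 5.98e-09). The 95% interval of this log2(FC) ran from 0.25 to 0.43, so its lower end lay at the fold threshold.

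NR1H3 (chr11:47248300-47269033, plus strand) was expressed at a much lower level. It had 70, 64, 52 and 69 counts in ethanol and 62, 63, 63 and 49 in O/A, and the conditions overlapped. Its level was 0.758 ± 0.0768 FPKM in ethanol and 0.710 ± 0.0698 in O/A (n = 4 each), a log2(FC) of -0.05 (standard error 0.148, edgeR adjusted p = 0.812). Its 95% interval ran from -0.34 to 0.25, which leaves out the estimate for NR1H2, and its sign turned when ethanol replicate 1 (0.0066) or O/A replicate 4 (0.0164) was left out.

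Per base of exon, NR1H2 supplied most LXR mRNA. The summed FPKM of the 2 LXRs was 9.35, 8.67, 9.54 and 8.81 in ethanol and 10.49, 10.82, 10.98 and 11.45 in O/A, a mean that was 20.3% higher in O/A. This sum and the other receptor sums and shares were added after the data had been seen, and since NR1H2 dominates the sum, it is no result beside that of NR1H2. NR1H2 made up 91.7% ± 0.994 of this sum in ethanol and 93.5% ± 0.856 in O/A (n = 4 each), with overlapping libraries (exact two-sided permutation test, p = 0.0571, 0.0571 after adjustment over 4 such quantities).

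RXRA and RXRB encode the obligate partners of the LXRs, which they also share with other nuclear receptors. RXRA (chr9:134317098-134440585, plus strand) had 1114, 1033, 1096 and 1311 counts in ethanol and 816, 852, 825 and 772 in O/A. Every O/A library was below every ethanol library. Its level fell from 5.08 ± 0.175 to 3.68 ± 0.124 FPKM (n = 4 each), a log2(FC) of -0.42 (standard error 0.042, edgeR adjusted p = 3.05e-12).

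RXRB (chr6:33193588-33200665, minus strand) had 818, 737, 743 and 863 counts in ethanol and 683, 781, 805 and 719 in O/A, and the conditions overlapped. Its level was 10.9 ± 0.380 FPKM in ethanol and 10.4 ± 0.367 in O/A (n = 4 each), a log2(FC) of -0.02 with a 95% interval from -0.12 to 0.07 (edgeR adjusted p = 0.689). A change of RXRB as large as that of RXRA lay outside this interval, which does not account for the exonic bases shared with SLC39A7 described below. RXRG, the third RXR, was at 0 counts in all 8 libraries.

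The summed FPKM of the RXRs was 16.44, 15.63, 16.35 and 15.72 in ethanol and 13.73, 14.40, 14.27 and 14.02 in O/A, a percent change of -12.04 (exact permutation p = 0.0286, the smallest that 4 libraries against 4 allow, adjusted 0.0381). RXRA made up 31.7% ± 1.06 of the sum in ethanol and 26.1% ± 1.24 in O/A (n = 4 each), and the libraries did not overlap (exact permutation p = 0.0286, adjusted 0.0381). Given the FPKM ranges of RXRA and RXRB, both the sum and the share had to separate. They mainly repeat the fall of RXRA, and their p-values are no result beside that of RXRA. FPKM values carry no TMM scaling, whose factors were 1.0115 to 1.0216 in ethanol and 0.9821 to 0.9879 in O/A, so a gene at a log2(FC) of 0 reads slightly lower in O/A on the FPKM scale.

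**Figure D2:**
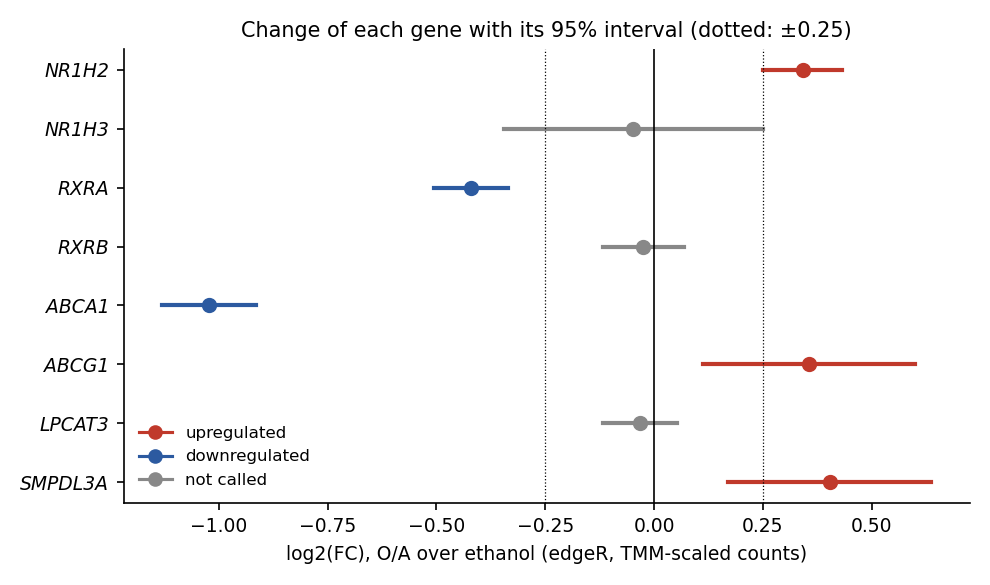
log2(FC) of O/A over ethanol (x axis, edgeR on TMM-scaled counts) for each of the 8 genes. Points are estimates and lines are 95% intervals, dotted lines mark 0.25 in each direction and colour gives the call. ABCA1 stands apart at -1.02, and the intervals of NR1H3, RXRB and LPCAT3 span 0.

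ABCA1 and ABCG1 encode the transporters that pass cholesterol to acceptors outside the cell, ABCA1 to lipid-poor apolipoprotein A-I and ABCG1 to formed high-density lipoprotein. ABCA1 lies on the minus strand of chromosome 9 (chr9:104781006-104928155). It had 861, 835, 791 and 1111 counts in ethanol and 401, 439, 421 and 435 in O/A. The highest O/A library was far below the lowest ethanol library. Its level fell from 4.26 ± 0.274 to 2.04 ± 0.0974 FPKM (n = 4 each), a log2(FC) of -1.02 (standard error 0.053, 95% interval -1.13 to -0.92, edgeR adjusted p = 1.31e-22). Of all genes tested, 2.64% had a lower log2(FC). Without ethanol replicate 4, the library with the highest ABCA1 count and the largest total, the log2(FC) was -0.97.

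The promoter of ABCA1 is shown because it is a textbook LXR promoter, in which a DR4 element bound by LXR and RXR and an E-box have been described, and because ABCA1 changed most. It is given as in RefSeq (GRCh38.p14), from 250 bases before the start site to 50 after it, chr9:104928106-104928405, 5′ to 3′ on the minus strand. The first capitals mark the E-box (-147 to -142 from the start site) and the second mark the DR4-like element (-69 to -54).

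ABCA1 promoter: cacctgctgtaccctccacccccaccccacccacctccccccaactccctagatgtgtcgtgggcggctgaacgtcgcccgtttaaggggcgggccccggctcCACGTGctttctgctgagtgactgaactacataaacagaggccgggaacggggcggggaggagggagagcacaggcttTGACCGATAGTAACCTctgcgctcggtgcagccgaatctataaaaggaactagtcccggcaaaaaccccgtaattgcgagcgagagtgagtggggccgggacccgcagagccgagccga

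On the opposite strand, at chr9:104928209-104928224, the second element reads as below, with both hexamers in capitals.

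ABCA1 DR4-like element: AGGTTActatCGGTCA

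Counted from 1 at the 5′ end, it differs from the repeat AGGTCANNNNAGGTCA by C5T and A11C. Both strands of each promoter were searched for this repeat with at most 2 mismatches in its 12 defined bases, and for the E-box CACGTG. RefSeq promoters matched 6 of the 8 genes (11 promoters), and ABCG1 and SMPDL3A had none in the table. The ABCA1 promoter was the only one of the 11 with a DR4-like element and the only one with the E-box. Among all 35116 promoters, 2.34% held a DR4-like element, 0.0199% an exact repeat and 7.26% the E-box. Over the 4 target genes and the further genes listed as LXR targets below, 25 promoters of 20 genes were found. Those of ABCA1 and APOC2 held a DR4-like element. These matches describe letters in a window and not binding.

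ABCG1 (chr21:42199689-42297244, plus strand) moved the other way. It had 82, 85, 80 and 89 counts in ethanol and 111, 103, 95 and 104 in O/A, so every O/A library was above every ethanol library, by as little as 6 counts. Its level was 0.743 ± 0.0427 FPKM in ethanol and 0.923 ± 0.0943 in O/A (n = 4 each), a log2(FC) of 0.36 (standard error 0.121, 95% interval 0.11 to 0.60, edgeR adjusted p = 0.0111). On the log2(FPKM + 1) scale, which compresses low levels, its log2(FC) was 0.14 and the call was lost.

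The balance between both transporters was also compared within each library, as the ratio of counts per base of exon. ABCA1 exceeded ABCG1 by 5.67, 5.30, 5.34 and 6.74 times in ethanol and by 1.95, 2.30, 2.39 and 2.26 times in O/A. The mean ratio was 5.76 ± 0.672 in ethanol and 2.22 ± 0.192 in O/A (n = 4 each), and no O/A library came near the ethanol range (exact permutation p = 0.0286, 0.0381 adjusted over 4 ratios). This ratio does not depend on how libraries were scaled to each other. In scaled counts, every O/A library was below every ethanol library for ABCA1 and above it for ABCG1, so the ratio had to separate. Its p is therefore no result beside those of the 2 genes.

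**Figure D3:**
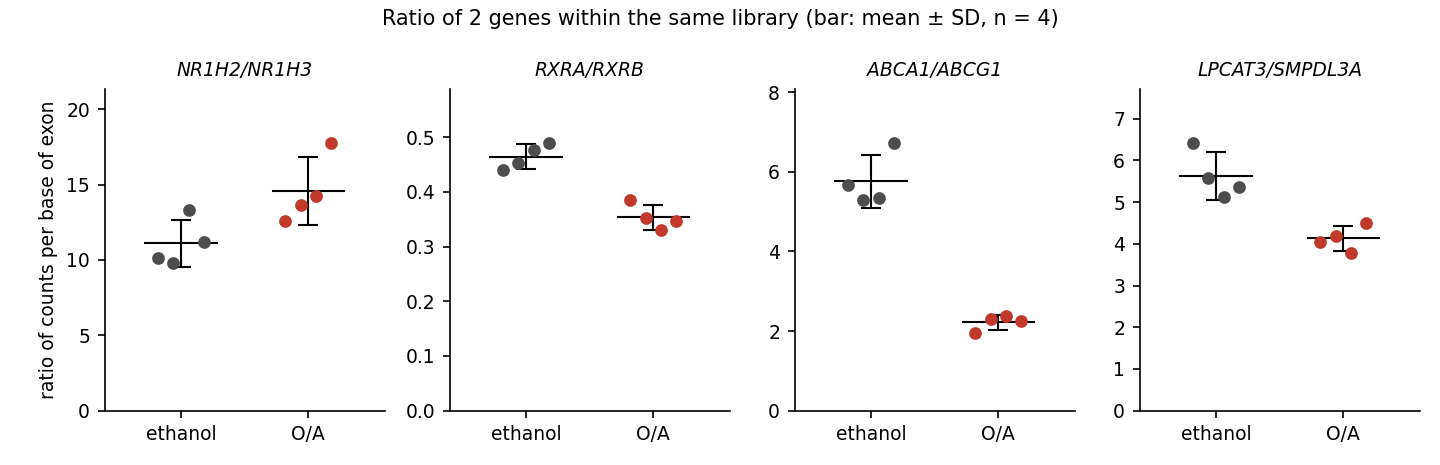
Ratio of counts per base of exon between 2 genes of the same library (y axes, from 0) in the 4 ethanol and 4 O/A libraries. Points are libraries and bars are mean ± SD. The ABCA1/ABCG1, RXRA/RXRB and LPCAT3/SMPDL3A ratios do not overlap between conditions, and the NR1H2/NR1H3 ratio does.

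Of the other ratios, RXRA to RXRB was 0.465 ± 0.0229 in ethanol and 0.354 ± 0.0231 in O/A (n = 4 each, exact permutation p = 0.0286, adjusted 0.0381). It mainly repeats the fall of RXRA, as RXRB was not called. Since RXRG was at 0 counts, the RXRA share of the RXR sum given above restates this ratio. NR1H2 to NR1H3 was 11.1 ± 1.58 and 14.6 ± 2.25, with overlapping libraries (n = 4 each, exact permutation p = 0.0571, adjusted 0.0571). All 4 pairs were chosen after the data had been seen. LPCAT3 and SMPDL3A were paired as the other LXR targets and not by a shared function.

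LPCAT3 and SMPDL3A are LXR targets that act on phospholipids and nucleotides. LPCAT3 (lysophosphatidylcholine acyltransferase 3) puts polyunsaturated fatty acids into phospholipids and lies at chr12:6976185-7018477 on the minus strand. It had 976, 959, 931 and 1177 counts in ethanol and 939, 946, 954 and 952 in O/A, and the conditions overlapped. Its level was 11.6 ± 0.258 FPKM in ethanol and 11.0 ± 0.438 in O/A (n = 4 each), a log2(FC) of -0.03 with a 95% interval from -0.12 to 0.05 (edgeR adjusted p = 0.543).

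SMPDL3A encodes a secreted enzyme of the acid sphingomyelinase family that cleaves nucleotides, and lies at chr6:122789049-122809720 on the plus strand. It had 76, 86, 91 and 110 counts in ethanol and 116, 113, 126 and 106 in O/A. The raw count of ethanol replicate 4, the largest library, was above that of O/A replicate 4, and scaled counts did not overlap. Its level rose from 2.08 ± 0.226 to 2.67 ± 0.133 FPKM (n = 4 each), a log2(FC) of 0.40 (standard error 0.116, 95% interval 0.17 to 0.64, edgeR adjusted p = 0.00280). The ratio of LPCAT3 to SMPDL3A was 5.62 ± 0.570 in ethanol and 4.13 ± 0.294 in O/A (n = 4 each, exact permutation p = 0.0286, adjusted 0.0381). Given the scaled counts of both genes, this ratio had to separate. It mainly repeats the rise of SMPDL3A, and its p is no result beside that of SMPDL3A.

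Some of these genes share exonic bases with a gene on the other strand. LPCAT3 shares 66.0% of its exonic bases with EMG1, a ribosome biogenesis gene with 522 to 680 counts and a log2(FC) of 0.26. RXRB shares 9.26% with SLC39A7 (2106 to 2847 counts, log2(FC) 0.31), NR1H3 4.17% with ACP2 (426 to 497 counts, log2(FC) -0.06) and NR1H2 22.1% with NAPSA (1 to 14 counts). The strand setting of the counting was not given in the sources used here, and without strand, reads of such bases cannot be told apart. The values of LPCAT3 are uncertain for this reason. To the extent of the shared bases, so are those of RXRB and NR1H3. SLC39A7 had more counts than RXRB and was upregulated, and ACP2 had more counts than NR1H3. ABCA1, ABCG1 and SMPDL3A share no exonic base with another annotated gene.

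By level per base of exon, the order in ethanol was LPCAT3, RXRB, NR1H2, RXRA, ABCA1, SMPDL3A, NR1H3 and ABCG1. Libraries of LPCAT3 and RXRB overlapped, as did those of NR1H3 and ABCG1, and the other neighbours were separate. In O/A the order was LPCAT3, RXRB, NR1H2, RXRA, SMPDL3A, ABCA1, ABCG1 and NR1H3, and the libraries of the first 3 overlapped between neighbours. ABCA1 and SMPDL3A thus changed places, and ABCG1 separated from NR1H3.

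Of 22 further genes listed as LXR targets, most were not called or too low to test. Of these, 13 were expressed highly enough to be tested, 2 were upregulated, 2 downregulated and 9 not called, beside the 34.7% of all genes called in either direction, 15.8% up and 18.9% down. Each count of calls in the lists that follow is to be read beside these shares. The downregulated genes were MYLIP, the ubiquitin ligase that degrades the LDL receptor (log2(FC) -0.90, 1.27 to 1.74 FPKM in ethanol and 0.62 to 0.90 in O/A, standard error 0.152, edgeR adjusted p = 1.37e-06), and EEPD1 (log2(FC) -0.75). The counts of EEPD1 were 14 to 21 with ethanol and 9 to 12 with O/A, and its call was lost in 8 of 15 alternatives.

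The upregulated genes of that list were TTC39B (log2(FC) 0.76, 0.89 to 1.15 FPKM in ethanol and 1.53 to 1.80 in O/A) and STARD4 (log2(FC) 0.74, 31.07 to 32.30 and 50.36 to 52.50 FPKM). TTC39B is known for promoting the degradation of LXR protein, and STARD4 is a sterol transfer protein known as an SREBP-2 target. Whether LXR acts on these genes in these cells was not tested. The same holds for MYLIP and EEPD1, and for ABCA1, ABCG1, LPCAT3 and SMPDL3A. Neither the rises nor the falls are therefore read as a change of LXR activity. SCD, the stearoyl-CoA desaturase, was the most abundant gene of the list (956.37 to 1046.71 FPKM in ethanol and 895.89 to 951.09 in O/A, log2(FC) -0.06), and SREBF1, which encodes SREBP-1, had a log2(FC) of 0.05. Neither was called, and the sign of SCD turned under quantile normalization (0.0622). APOC2, ABCG5 and ABCG8 were at 0 counts in every library, and LPL, CETP and NR0B2 had at most 2, so these targets, active in liver, gut or macrophages, could not be compared. The median log2(FC) of the 13 tested genes was 0.04.

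**Figure D4:**
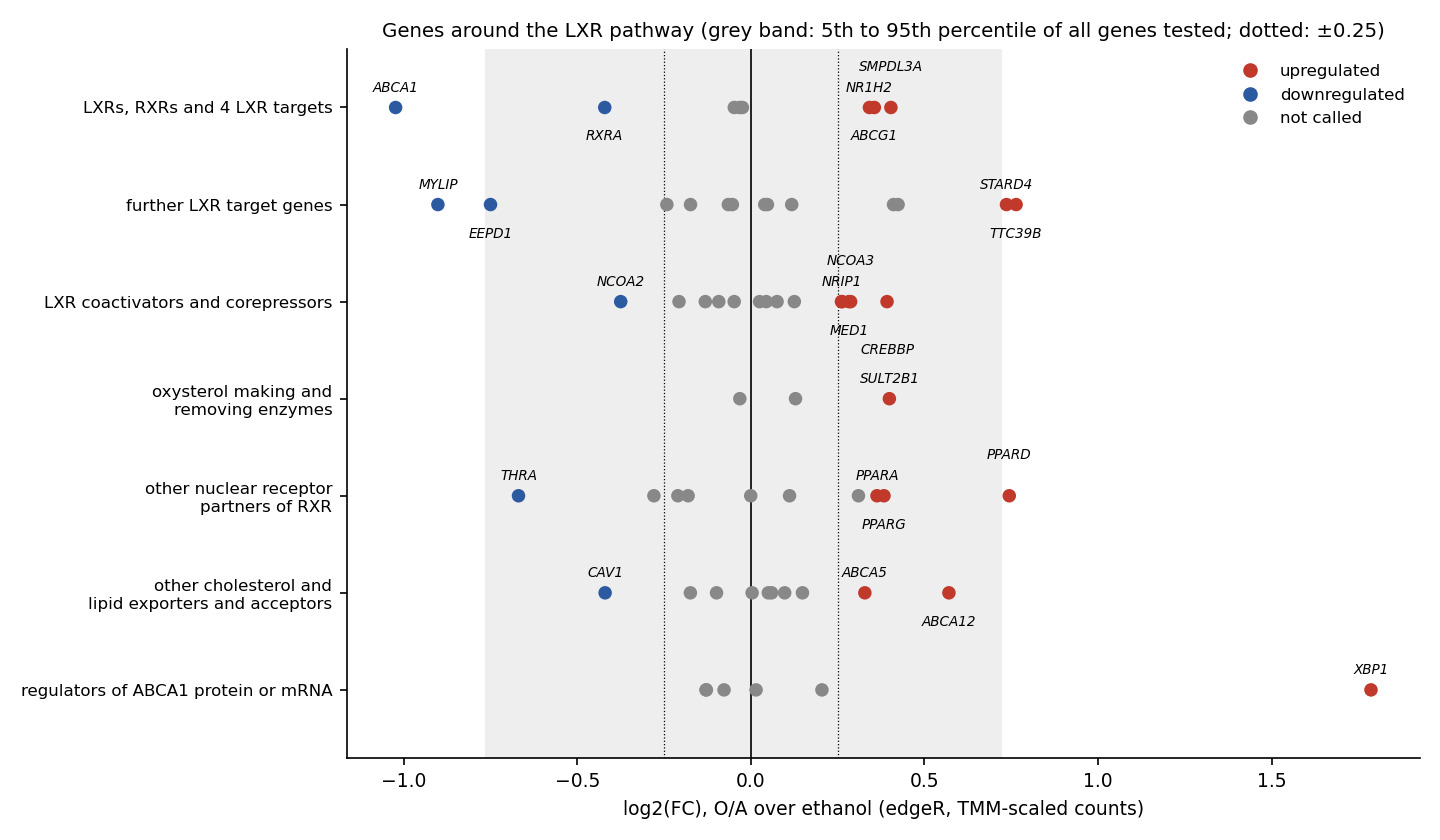
log2(FC) of O/A over ethanol (x axis, edgeR on TMM-scaled counts) for the 8 genes and for the tested genes of 6 lists around them (y axis). Each point is a gene coloured by its call, the called genes named are at most 4 in each direction, and the grey band runs from -0.76 to 0.72, the 5th to 95th percentiles of all genes tested. ABCA1 and MYLIP lie below the band, and STARD4, TTC39B, PPARD and XBP1, the last at 1.79, lie above it.

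LXR coactivators and corepressors were all expressed. Of 14 tested, 5 were upregulated, beside 15.8% of all genes, 1 was downregulated, beside 18.9%, and 8 were not called. CREBBP, a histone acetyltransferase, had a log2(FC) of 0.39, the coactivator NCOA3 of 0.29, MED1 of the Mediator complex of 0.28 and the corepressor NRIP1 of 0.26, the largest 4 of the 5. NCOA2, a coactivator, was downregulated (log2(FC) -0.37). TBL1XR1 of the NCoR complex, which had the highest mean FPKM over all 8 libraries, had a log2(FC) of -0.21 and was not called. The calls of NCOA3, MED1 and NRIP1 lay close to the fold threshold and were lost in 3, 3 and 4 of 16 alternatives.

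Enzymes that make or remove oxysterols, the ligands of the LXRs, were sparse. Of 9 listed, 3 were tested. SULT2B1, which sulfates cholesterol and oxysterols and is abundant in differentiating epidermis, was upregulated (57 to 70 counts with ethanol and 61 to 117 with O/A, log2(FC) 0.40, standard error 0.154, edgeR adjusted p = 0.0273). Its libraries overlapped, and its call was lost in 6 of 16 alternatives, including without O/A replicate 2 (log2(FC) 0.20). HSD3B7, an enzyme of bile acid synthesis that acts on hydroxylated sterols, was the most abundant of the 3 (2.06 to 2.83 FPKM in ethanol and 2.15 to 2.57 in O/A) and was not called, with a log2(FC) of -0.03 whose sign turned in 4 of 16 alternatives. CYP27A1, CH25H, CYP46A1 and CYP7B1, which hydroxylate cholesterol or oxysterols, had at most 4 counts in each library and were not tested.

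RXRA and RXRB also serve other nuclear receptors. Of 15 genes listed as RXR partners (RXRG included), 10 were tested, 3 were upregulated, beside 15.8% of all genes, 1 was downregulated, beside 18.9%, and 6 were not called. The upregulated genes encode peroxisome proliferator-activated receptors, which sense fatty acids. PPARD had 16.71 to 17.42 FPKM in ethanol and 25.59 to 29.31 in O/A (log2(FC) 0.74, standard error 0.036, edgeR adjusted p = 2.46e-23), PPARG a log2(FC) of 0.38 and PPARA of 0.36. THRA, a thyroid hormone receptor, was downregulated (log2(FC) -0.67, 1.49 to 1.76 FPKM in ethanol and 0.88 to 1.12 in O/A). PPARD, the most abundant partner tested in O/A, was thus above NR1H2 per base of exon in both conditions.

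Among other exporters and acceptors of cholesterol and lipids, 10 of 14 were tested, 2 were upregulated, 1 was downregulated and 7 were not called. ABCA12, the keratinocyte transporter that loads lipids into lamellar granules, rose, with 4.62 to 5.59 FPKM in ethanol and 7.12 to 7.38 in O/A (log2(FC) 0.57, standard error 0.045, edgeR adjusted p = 7.46e-15). ABCA5 had a log2(FC) of 0.33. CAV1, the caveolar coat protein and the most abundant of the list, fell, with 397.92 to 417.40 FPKM in ethanol and 288.36 to 303.08 in O/A (log2(FC) -0.42). ABCA1 and ABCA12, of the same transporter subfamily, thus moved in opposite directions.

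Of 10 genes listed as regulators of ABCA1 protein or mRNA, 6 were tested and only XBP1 was called. XBP1, a transcription factor of the unfolded protein response that is not known chiefly for ABCA1, rose, with 26.29 to 29.33 FPKM in ethanol and 91.17 to 93.92 in O/A (log2(FC) 1.79, standard error 0.031, edgeR adjusted p = 6.43e-43). CAPN2, a subunit of calpain, the protease that cleaves ABCA1 protein, had the highest mean FPKM of the list over all 8 libraries (77.07 to 79.06 in ethanol and 68.24 to 69.67 in O/A, where XBP1 was higher) and had a log2(FC) of -0.13.

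The microRNAs miR-33a and miR-33b lie in introns of SREBF2 and SREBF1 and are known to repress ABCA1 mRNA, so their sequences are shown, from RefSeq (GRCh38.p14), with the seed (bases 2 to 8) in capitals. The first lies at chr22:41900949-41900969 on the plus strand and the other at chr17:17813897-17813916 on the minus strand.

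hsa-miR-33a-5p: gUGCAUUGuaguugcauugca

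hsa-miR-33b-5p: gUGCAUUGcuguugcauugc

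Both share one seed. Libraries of polyadenylated RNA do not measure mature microRNAs, and the MIR33A row had 0 counts and MIR33B at most 2 in each library. The host gene SREBF2 had 27.44 to 29.02 FPKM in ethanol and 30.66 to 32.72 in O/A, and its log2(FC) of 0.20 (standard error 0.028, edgeR adjusted p = 1.66e-08) lay within the fold threshold. Both host genes were named for this reason after their values had been seen.

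For each called gene, the genes whose scaled counts followed it most closely over the 8 libraries are given as a description. These libraries share the difference between conditions, which such a correlation also holds. For ABCA1 they were MGAT4B (Pearson r = 0.999), GIT2 (0.998) and ZSCAN25 (0.998), and 1324 genes had an r above 0.95. For RXRA they were DUS2 (0.996), ACLY (0.996) and NFIC (0.996), with 1199 genes above 0.95. For NR1H2 they were DNAJA4 (0.989), SERAC1 (0.987) and THAP9-AS1 (0.985), with 282 such genes. ABCG1 and SMPDL3A, at fewer counts, had 24 and 46, led by RACK1 (0.982), MRPL22 (0.977) and PCDHB2 (0.973) for ABCG1 and by BTN2A1 (0.986) and PAXIP1-AS2 (0.983) for SMPDL3A.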

How the data were processed

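N/TERT cells gave 8 mRNA libraries, with the condition and replicate number taken from the labels and the time of treatment from the study's legends. The authors selected RNA with oligo(dT), sequenced paired-end reads, aligned them to GRCh38.p13 with HISAT2 2.0.1 and counted them on Ensembl genes with HTSeq 0.6.1. The deposited count values are not normalized. FPKM was computed by the authors from the same counts, the exonic length and the library total. The authors' own comparison, with fold changes and p-values, was not used. The Ensembl release and the strand setting are not given in the sources used here.

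Differential expression was tested with edgeR 4.0.16 under R 4.3.3 (TMM scaling, robust quasi-likelihood test, a filter of 10 counts in 4 or more libraries, Benjamini-Hochberg adjustment over 14893 genes). Single quantities were compared by exact permutation tests in SciPy 1.17.1. The 8 genes and the lists around them were chosen with earlier results of these data known. Every member is named, and of each list the called genes, at most 4 of the largest changes in each direction, the gene of highest mean FPKM and genes whose absence matters. Alternatives were DESeq2 1.42.0, limma 3.58.1 on log2(FPKM + 0.1) and log2(FPKM + 1), other scalings, filters and thresholds, the replicate number as a block and each library left out. On simulated data of 14893 genes, edgeR recovered 74 of 100 genes changed by 0.5 and 88 of 100 changed by 1 on the log2 scale, with 2 false calls. The changed genes were a far smaller share there than the 34.7% called in the real data, so these rates need not hold for it. Symbols blank in the table were filled from a gene name table for 20380 of 20417 genes. Replicates were independent experiments of one line, so p-values measure the spread between such experiments. Some genes are not reported here, and the lists were counted without them.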

Additional observations from a re-analysis of the deposited data

Results flagged for a closer look

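Over 70 groups of 4 libraries (35 named genes in each condition), Dixon's gap test at its 95% critical value, which chance passes in about 1 of 20 groups (3.5 here), marked 1 group. ABCA5 had 17.58 scaled CPM in O/A replicate 3, with 15.30 to 15.46 in the other O/A libraries. None of the 8 LXR, RXR and target genes had such a gap.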

How the results depend on the processing

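The count of 5 called among the 8 genes was 5 with DESeq2, median-ratio scaling, quantile normalization, no filter, limma on log2(FPKM + 0.1), the replicate block, no fold threshold and each library left out, and 4 at a mean FPKM of at least 1 (6 genes tested) and on log2(FPKM + 1). It was 1 at an absolute log2(FC) above 1. Over all genes, 5165 were called, 7999 with no fold threshold and 797 above 1. Leaving out 1 library gave 4987 to 5114 genes. The log2(FC) of ABCA1 ranged from -1.05 to -0.79 and that of RXRA from -0.45 to -0.38 over all 16 alternatives. NR1H3 turned positive when ethanol replicate 1 (0.0066) or O/A replicate 4 (0.0164) was left out, within a range of -0.103 to 0.0164 over left-out libraries, and SCD turned positive under quantile normalization (0.0622), as did HSD3B7 (0.0759), which ranged from -0.116 to 0.0334 over left-out libraries. The cause was not tested. ABCG1, with 80 to 111 counts, kept its call in 14 of 15 alternatives and lay between 0.30 and 0.42 over left-out libraries, and the loss was on log2(FPKM + 1). Of the other genes named, EEPD1 lost its call in 8 alternatives, SULT2B1 in 6, EMG1 in 5, NRIP1 in 4, NCOA3 and MED1 in 3 each, and ABCA5, PPARA and PPARG in 1 each, whereas TBL1XR1 and CAPN2 gained one in 1 each. The within-library ratios and the receptor sums, with libraries left out as an alternative chosen after seeing the data, kept their sign. Same-numbered libraries did not deviate together (r = 0.039, -0.002, -0.023 and 0.067), and the replicate block called 5160 genes.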
